A study of Mus musculus with 6 samples.

Results

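Myosin heavy chains are the motor proteins of muscle and of the contractile cytoskeleton, and 8 genes of this family were followed in RNA from mouse embryos with and without Tmem216: Myh6, Myh7, Myh7b, Myh3, Myh8, Myh11, Myh9 and Myh10. They were chosen by name from 56359 rows of the deposited table, and all 8 were found. The choice was made with earlier results of these samples known, including the rise of Myh6 and Myh7 in Tmem216-/-, so levels and differences of the 8 genes between genotypes are given as a description without p-values. Whether each of the 8 genes passed in the fit over all genes is listed below, and nothing is read from it. The data are 3 wild type and 3 Tmem216-/- samples of strain C57BL/6 at embryonic day 12, with levels in TPM (a level scaled by transcript length and by the total of the library, so that genes can be compared within a sample). The labels name the tissue only as embryo. They say neither which part was taken nor whether a sample was 1 embryo or a pool, and they give no details of the mutant allele, so p-values reflect only how much these 6 libraries vary, and part of that may be technical.

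Tmem216 codes for a tetraspan protein at the base of the primary cilium, and its level checks the labels. Wild type replicates 1, 2 and 3 had 31.0, 30.7 and 17.4 TPM, and Tmem216-/- replicates 1, 2 and 3 had 2.25, 0.51 and 1.39 TPM, so all samples matched their genotype. Values below follow this order of replicates. Depth is unknown because TPM keeps no read number. Between-sample correlations of log2(TPM + 1) over the 16411 tested genes ran from 0.934 to 0.975. Red cell, neural and mesenchyme markers were high in all 6 samples, but liver markers were uneven: Afp, a fetal liver secreted protein, had 669, 1228 and 11.3 TPM in wild type against 480.4, 0.47 and 3.07 TPM in the mutants. Summed levels of 5 hepatocyte genes ran from 178 to 1997 TPM in wild type and from 83.7 to 823 TPM in Tmem216-/-. The part of this difference in tissue content in the results below was not tested, and in bulk RNA more cells of a type and more RNA per cell cannot be told apart.

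A conventional myosin joins a pair of heavy chains, whose heads hydrolyse ATP and pull on actin and whose tails assemble into filaments, with light chains at the neck. Vertebrates switch between heavy chain genes by muscle type and stage. Myh6 (alpha) and Myh7 (beta) are the heart chains, with Myh7 prevailing in the embryonic ventricles and Myh6 in the atria, and Myh7 also serves slow skeletal fibres. Myh3 (embryonic) and Myh8 (perinatal) are the chains of developing skeletal muscle, Myh11 is the smooth muscle chain, and Myh9 and Myh10 are non-muscle chains used in cell division, shape and migration. Myh7b is an ancient relative of the heart chains that is known best as the host of a microRNA.

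In mm10 (GENCODE M21) Myh6 (ENSMUSG00000040752) is found at 54941921 to 54966927 of chromosome 14, minus strand, and Myh7 (ENSMUSG00000053093) lies 3756 bases away on the same strand at 54970684 to 54994626. Myh3 (ENSMUSG00000020908, chromosome 11, 67078300 to 67102291) and Myh8 (ENSMUSG00000055775, 67277124 to 67308634) sit on the plus strand in a cluster that also holds Myh2, Myh1, Myh4 and Myh13 and spans 293287 bases. Myh10 (ENSMUSG00000020900) lies further along chromosome 11 at 68691559 to 68816632. Myh9 (ENSMUSG00000022443) lies on chromosome 15 at 77760587 to 77842175, Myh11 (ENSMUSG00000018830) on chromosome 16 at 14194535 to 14291372, both on the minus strand, and Myh7b (ENSMUSG00000074652) on the plus strand of chromosome 2 at 155611212 to 155634307. All 8 are protein coding.

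The sequences before the start sites are shown for the 2 pairs whose members placed the samples in the same order, Myh6 with Myh7 and Myh3 with Myh8. Each comes from the 250 bases upstream of a RefSeq start (GRCm38.p6, the mm10 assembly), 5′ to 3′ on the gene's strand. Capitals mark matches on either strand to MCAT (letters CATTCC, the core of TEAD binding sites), to the GATA motif (letters AGATAA), to the TATA box (letters TATAAA), to the CArG box of SRF or to the MEF2 site. The last 34 bases of the Myh6 window lie in an exon of another transcript and are not printed. No GENCODE transcript begins at this Myh6 start, and the whole window lies within the GENCODE bounds of Myh6. For Myh7, which has 2 RefSeq starts, the upstream one is shown, where 2 GENCODE transcripts also begin. The printed regions are chr14:54966642-54966857 and chr14:54994627-54994876 on the minus strand and chr11:67078050-67078299 and chr11:67276874-67277123 on the plus strand.
Myh6: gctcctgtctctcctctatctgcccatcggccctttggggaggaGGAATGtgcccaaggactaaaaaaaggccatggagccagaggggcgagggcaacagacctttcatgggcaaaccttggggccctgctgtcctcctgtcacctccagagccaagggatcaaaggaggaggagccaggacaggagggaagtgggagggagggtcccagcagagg
Myh7: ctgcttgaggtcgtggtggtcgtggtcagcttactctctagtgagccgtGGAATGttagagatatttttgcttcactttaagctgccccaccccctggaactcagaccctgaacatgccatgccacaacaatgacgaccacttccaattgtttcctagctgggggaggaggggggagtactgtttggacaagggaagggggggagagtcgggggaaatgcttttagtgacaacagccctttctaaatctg
Myh3: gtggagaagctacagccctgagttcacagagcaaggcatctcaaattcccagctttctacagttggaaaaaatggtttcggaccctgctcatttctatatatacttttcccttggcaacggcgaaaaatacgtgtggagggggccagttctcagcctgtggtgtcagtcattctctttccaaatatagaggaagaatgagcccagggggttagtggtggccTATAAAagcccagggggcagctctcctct
Myh8: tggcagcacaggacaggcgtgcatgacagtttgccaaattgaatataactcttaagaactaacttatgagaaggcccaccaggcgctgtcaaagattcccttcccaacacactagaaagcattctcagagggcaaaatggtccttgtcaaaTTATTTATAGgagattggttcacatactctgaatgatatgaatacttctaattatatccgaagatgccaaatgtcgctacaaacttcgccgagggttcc

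Myh6 and Myh7 each held 1 MCAT match on the opposite strand, which began 206 and 201 bases before the start shown. The window of the other Myh7 start held no MCAT match. MCAT occurred in 12.6% of 32851 promoter windows of the same length, and Myh10 also held 1, beginning 7 bases before its start, in a window that lies within an exon of another Myh10 transcript. Myh3 held a TATA match 29 bases before its start. Myh8 held a MEF2 match 99 bases before its start, which overlaps a TATA match on the opposite strand. Of the members not printed, Myh9 held a TATA match on the opposite strand and Myh7b a GATA match, 123 and 133 bases before their starts. TATA was found in 12.4% of windows, MEF2 in 2.92% and GATA in 9.99%. The CArG box, found in 1.47% of windows, matched in none of the windows of the 7 members with a RefSeq entry in the promoter table.

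Myh6, Myh7 and Myh7b carry microRNAs in introns, shown because each is made from a heavy chain transcript described below. Capitals mark the seed, bases 2 to 8.
miR-208a-3p (intron 29 of Myh6): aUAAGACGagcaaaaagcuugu
miR-208b-3p (intron 31 of Myh7): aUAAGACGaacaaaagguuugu
miR-499-5p (intron 19 of Myh7b): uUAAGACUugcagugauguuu

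The seeds of miR-208a-3p and miR-208b-3p are identical. The rows of the 3 hairpins, Mir208a, Mir208b and Mir499, were listed at 0 TPM in all 6 samples, in a library type that is not made for small RNA, so the data give no level of the microRNAs. Mhrt, an antisense RNA whose gene bounds overlap those of Myh7 by 3666 bases, was between 0.11 and 0.61 TPM in wild type and between 0.37 and 0.73 TPM in Tmem216-/-. Without strand information, which the sources used here do not give, reads from stretches where Mhrt and Myh7 overlap cannot be told apart.

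Sequence likeness limits how well some members can be separated. Of 5959 windows of 50 bases in the Myh6 transcript, 1373 (23%) also occur in Myh7, and these make up 22.6% of the windows of Myh7. Reads from those stretches are divided between the genes by estimation. For Myh8, 21.4% of windows occur in another heavy chain, with Myh2 (11.8%), Myh1 (9.56%) and Myh4 (9.31%) ahead of Myh3 (1.54%). For Myh3 the share was 4.85%, and for Myh9, Myh10 and Myh11 it was 1.12%, 0.947% and 0.406%. Myh7b shared none.

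The heart chains stood apart from the rest of the family. Wild type samples had 3.75, 5.59 and 3.54 TPM of Myh6 and Tmem216-/- samples 57.8, 106 and 71.8 TPM. Each Tmem216-/- sample was thus far above each wild type sample, and the lowest Tmem216-/- value was 10.3 times the highest wild type value. Means were 4.29 ± 1.13 and 78.4 ± 24.5 TPM (SD, n = 3 each), an 18.3-fold difference. For Myh7 the wild type values were 7.22, 9.12 and 6.54 TPM, and the Tmem216-/- values 78.3, 203 and 120.3 TPM. Its groups did not overlap either, and the lowest Tmem216-/- value was 8.59 times the highest wild type value. Means were 7.63 ± 1.34 and 134 ± 63.6 TPM, a 17.6-fold difference. On the log2(TPM + 1) scale, which understates the change of low genes, the fold changes were 3.88 (SE 0.25) for Myh6 and 3.87 (SE 0.33) for Myh7, close to equal. Among the 16411 genes tested, 10 had a log2 fold change as high as that of Myh7 or higher, Myh6 and Myh7 included.

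Tmem216-/- replicate 2 had the highest level of both heart chains and replicate 1 the lowest of the 3 mutants, and the samples fell in the same order for both genes. Within Tmem216-/- the highest value was 1.83 times the lowest for Myh6 and 2.60 times for Myh7. In wild type these ratios were 1.58 and 1.39. The spread of Myh7 was thus wider among the mutants than in wild type.

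Myh7b, the relative of the heart chains, did not share this difference in size. Wild type had 2.12, 3.20 and 1.67 TPM and Tmem216-/- had 3.84, 2.88 and 3.38 TPM. The groups overlap, since wild type replicate 2 lay above Tmem216-/- replicate 2. The log2 fold change was 0.41 (SE 0.22), with a 95% interval from -0.11 to 0.94, and it did not pass in limma. Without wild type replicate 3 it was 0.26.

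**Figure D1:**
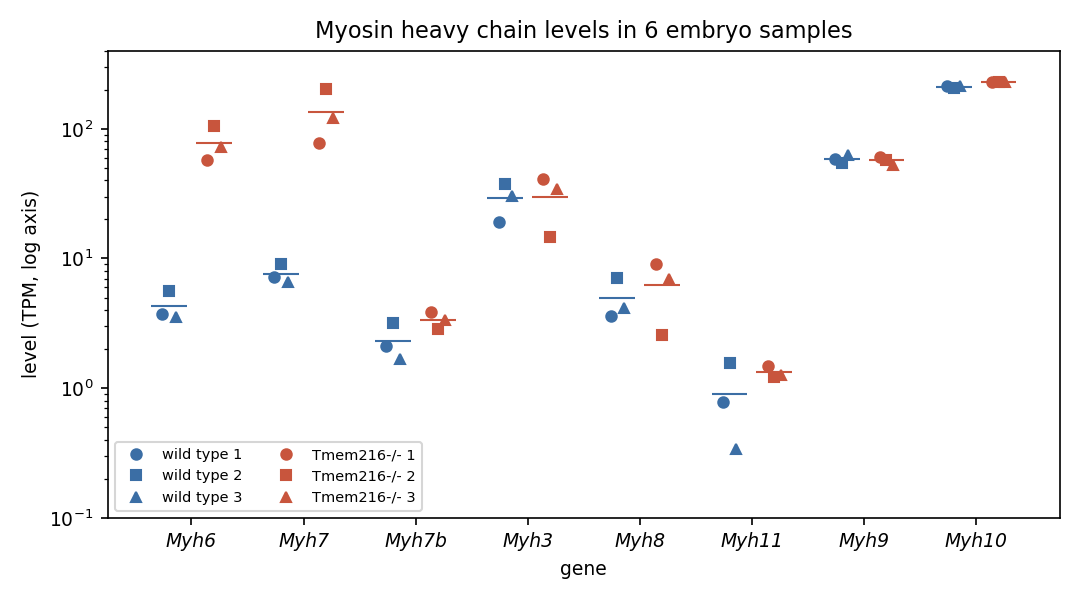
Level of each heavy chain gene in TPM (log axis) in 3 wild type samples (blue) and 3 Tmem216-/- samples (red); marker shapes are replicates 1, 2 and 3, and lines are group means. Myh6 and Myh7 are separated by genotype, Myh3 and Myh8 spread within both groups, and Myh9 and Myh10 are nearly level.

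The developmental skeletal chains did not separate by genotype. Myh3 stood at 19.2, 37.8 and 30.1 TPM in wild type against 41.4, 14.6 and 34.1 TPM in the mutants. The mutants included both the highest and the lowest of the 6 values. Means were 29.0 ± 9.31 and 30.0 ± 13.8 TPM, and the log2 fold change was -0.02 (SE 0.41, 95% interval from -1.01 to 0.96). Myh8 stood at 3.58, 7.07 and 4.13 TPM in wild type against 9.12, 2.55 and 6.96 TPM in the mutants, with a log2 fold change of 0.20 (SE 0.42, interval from -0.81 to 1.21). These intervals are wide, so that sizeable differences in either direction lie within them.

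Myh3 and Myh8 placed the 6 samples in the same order: Tmem216-/- 1, wild type 2, Tmem216-/- 3, wild type 3, wild type 1 and Tmem216-/- 2, from high to low. Tmem216-/- replicate 2, which had the highest heart chains, thus had the lowest developmental skeletal chains. Among the wild type samples, replicate 2 was the highest for the heart and the developmental skeletal chains alike. Myh3 was 4.54 to 7.29 times as high as Myh8 in each sample. The sarcomeric pairs can be set against each other within samples. Myh6 plus Myh7 was 0.481, 0.328 and 0.294 times Myh3 plus Myh8 in wild type, and 2.70, 18.0 and 4.69 times in Tmem216-/-.

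Myh11, the smooth muscle chain, was low throughout. Its wild type values were 0.78, 1.57 and 0.34 TPM and its mutant values 1.49, 1.23 and 1.27 TPM, and it passed the filter of 1 TPM in 3 samples with 4 samples, 3 of them mutant. The highest value of all was that of wild type replicate 2, so the groups overlap. The log2 fold change was 0.35 (SE 0.27, 95% interval from -0.29 to 0.99), with 0.59 without wild type replicate 2 and 0.12 without wild type replicate 3.

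The non-muscle chains were the steadiest members. Myh10 had 213, 205 and 214 TPM in wild type against 228, 231 and 231 TPM in the mutants. Each mutant lay above each wild type sample, but by little: the highest of the 6 values was 1.13 times the lowest, and the log2 fold change of 0.13 (SE 0.07) did not pass in limma. Myh9 had 58.8, 54.3 and 63.0 TPM in wild type against 61.2, 57.6 and 52.6 TPM in the mutants, with overlapping groups and a log2 fold change of -0.04 (SE 0.10, interval from -0.28 to 0.20). Myh10 was 3.40 to 4.38 times as high as Myh9 in every sample.

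Counted together, 2 of the 8 members, Myh6 and Myh7, passed at an adjusted p under 0.05 in limma, both higher, and 6 did not. Over all 16411 genes tested 0.104% passed in either direction, 0.0975% higher and 0.00609% lower, and 4.46% had an unadjusted p under 0.05. In 3 members (Myh6, Myh7 and Myh10) the groups did not overlap, all higher in Tmem216-/-, beside 4.75% of all genes tested that did not overlap and were higher, 4.83% that were lower and 9.57% in either direction. All 8 members passed the filter on low values. Because the members were chosen with this contrast known, nothing is read from these counts. Their median log2 fold change was 0.27, beside -0.01 over all genes tested. The Myh6 call was lost without wild type replicate 1 (log2 fold change 3.81) or 3 (3.78). The Myh7 call was lost without wild type replicate 1 (3.84), 2 (3.99) or 3 (3.78) or Tmem216-/- replicate 3 (3.89), and both were lost with no filter. Without wild type replicate 1 no gene of the table passed in limma, and 518 had an unadjusted p under 0.05.

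The order of levels changed with genotype through the heart chains. In wild type it was Myh10 (210.4 ± 4.97 TPM), Myh9 (58.7 ± 4.35), Myh3 (29.0 ± 9.31), Myh7 (7.63 ± 1.34), Myh8 (4.93 ± 1.88), Myh6 (4.29 ± 1.13), Myh7b (2.33 ± 0.79) and Myh11 (0.90 ± 0.62). Neighbours overlapped for Myh7 with Myh8 and for Myh8 with Myh6, although Myh7 was above Myh8 in each of the 3 samples. In Tmem216-/- it was Myh10 (230 ± 1.84 TPM), Myh7 (134 ± 63.6), Myh6 (78.4 ± 24.5), Myh9 (57.1 ± 4.28), Myh3 (30.0 ± 13.8), Myh8 (6.21 ± 3.35), Myh7b (3.37 ± 0.48) and Myh11 (1.33 ± 0.14). There Myh7 overlapped Myh6, Myh6 overlapped Myh9 and Myh8 overlapped Myh7b. In Tmem216-/- replicate 1 Myh6 (57.8 TPM) was just below Myh9 (61.2 TPM).

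As shares of the summed heavy chain RNA, the same data show how much of the pool the heart chains took. The summed level of the 8 genes was 308, 323 and 323 TPM in wild type, against 481, 619 and 521 TPM in the mutants. Without Myh6 and Myh7 the sums were 297, 309 and 313 TPM and 345, 310.0 and 329 TPM, and 200.5 of the 222 TPM between the group means of the whole sum lay in the heart pair. Myh6 plus Myh7 made up 3.56%, 4.55% and 3.12% in wild type and 28.3%, 49.9% and 36.9% in Tmem216-/-, or 3.74% ± 0.73 and 38.4% ± 10.9. Leaving out each sample moved the difference in means between 28.8 and 39.6 percentage points. The non-muscle pair took 84.6% ± 4.09 in wild type and 53.7% ± 6.74 in Tmem216-/-, a lower share at nearly level TPM.

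**Figure D2:**
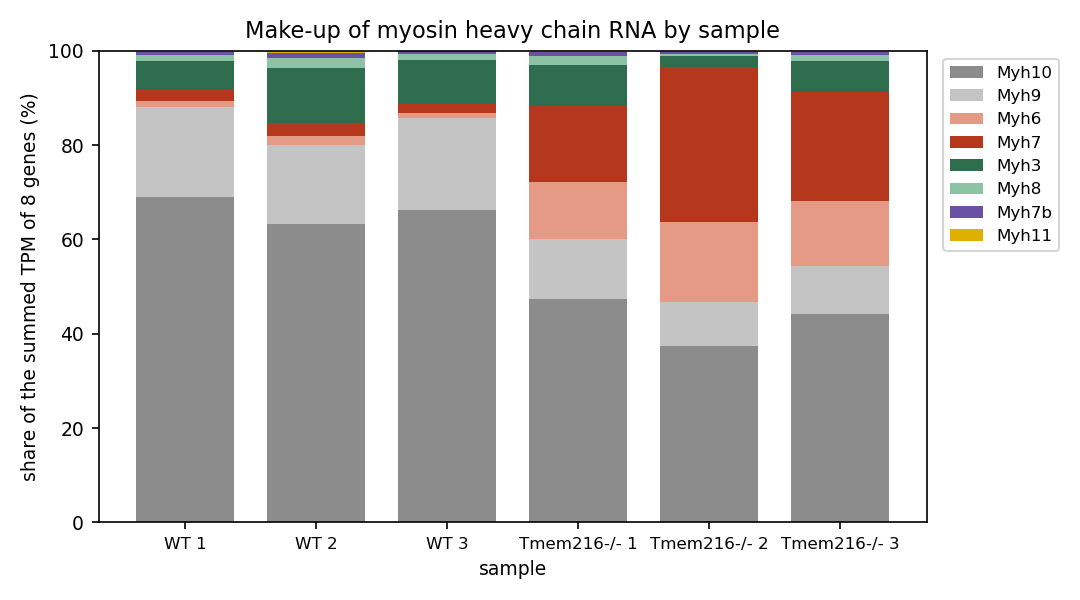
Share of the summed TPM of the 8 heavy chain genes taken by each gene, in percent, for each of the 6 samples. Myh6 and Myh7 together are 3.12% to 4.55% of the bar in wild type and 28.3% to 49.9% in Tmem216-/-.

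The balance between the alpha and beta heart chains overlapped between the genotypes. Myh6 was 34.2%, 38.0% and 35.1% of Myh6 plus Myh7 in wild type and 42.4%, 34.2% and 37.4% in Tmem216-/-. The groups overlap, with means of 35.8% ± 1.99 and 38.0% ± 4.18. The difference of 2.23 points was 0.00833 points without Tmem216-/- replicate 1, which had the highest alpha share. Because 23% of Myh6 windows cannot be told from Myh7, this share depends on how the estimation divided such reads.

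The heart chains kept a steady ratio to other cardiomyocyte RNA within a genotype. Myh6 plus Myh7 over the summed level of 13 cardiomyocyte genes outside the myosins was 0.286, 0.254 and 0.246 in wild type and 0.342, 0.349 and 0.346 in Tmem216-/-. Between genotypes it differed, and each mutant ratio was above each wild type ratio. The summed level itself was 38.3, 58.0 and 41.0 TPM and 398, 886 and 555.5 TPM, so in the mutants the ratio hardly varied while the level did. At the RNA level the ratios of heart heavy to light chains differed between the genotypes. Myh7 over Myl2, the ventricular light chain, was 1.02, 2.27 and 2.93 in wild type and 0.442, 0.358 and 0.359 in Tmem216-/-. Myh6 over Myl7, the atrial light chain, was 1.96, 1.14 and 1.74 in wild type and 0.383, 0.242 and 0.266 in Tmem216-/-. Both ratios were lower in each mutant than in each wild type sample. In wild type the light chains were low, Myl2 at 7.06, 4.02 and 2.23 TPM and Myl7 at 1.91, 4.91 and 2.04 TPM. The wild type ratios are therefore uncertain. Myh7 also serves slow skeletal fibres, and the part of that source in its level was not tested. Against Tnnt2, the cardiac troponin T gene that young skeletal muscle also expresses, the direction was the opposite: Myh7 over Tnnt2 was 0.474, 0.373 and 0.375 in wild type and 0.649, 0.831 and 0.629 in Tmem216-/-.

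**Figure D3:**
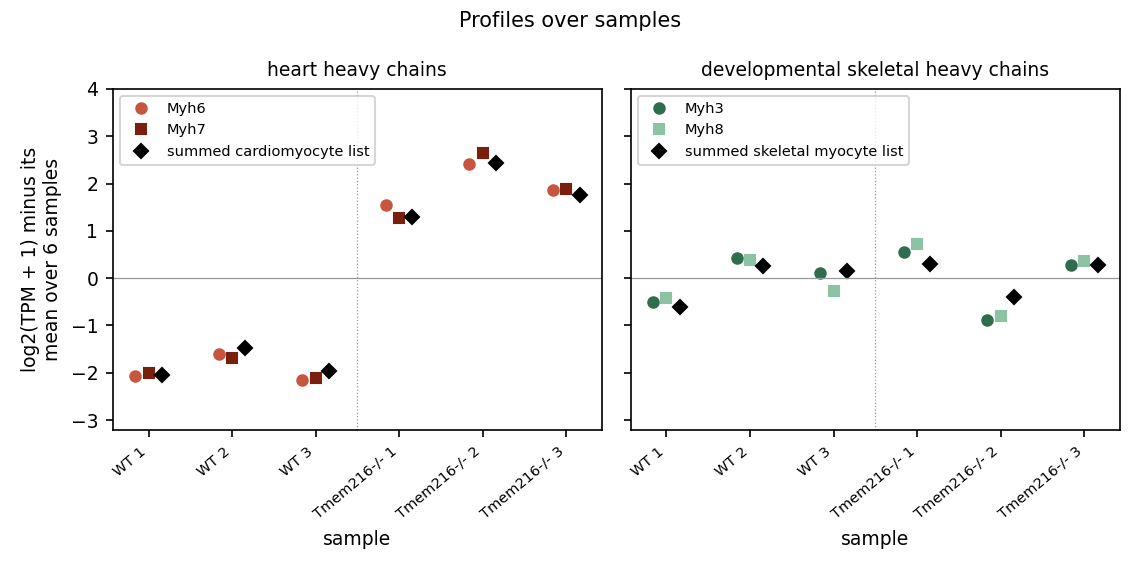
Level in each sample as log2(TPM + 1) minus the mean over the 6 samples. On the left Myh6, Myh7 and the summed level of 13 cardiomyocyte genes are low in wild type and high in Tmem216-/-, with Tmem216-/- replicate 2 on top; on the right Myh3, Myh8 and the summed level of 13 skeletal myocyte genes vary around 0, with Tmem216-/- replicate 2 among the low samples.

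Genes with profiles like each variable member were found by the root mean square difference of centred log2(TPM + 1) over the 6 samples. For Myh6 the nearest were Ankrd1, a cofactor protein of the nucleus and sarcomere in heart (0.12), and Csrp3, a Z-disc LIM protein (0.20). For Myh7 they were the same genes, Csrp3 (0.11) and Ankrd1 (0.13), while Myh6 and Myh7 differed from each other by 0.16. For Myh3 the nearest were Mymk, the myoblast fusion protein myomaker (0.09), and Myom3, an M-band protein of skeletal muscle (0.09). Mymk had 3.85, 8.10 and 7.51 TPM in wild type against 10.2, 3.06 and 8.59 TPM in the mutants. Ankrd1 and Csrp3 are also in the cardiomyocyte list below and Mymk in the skeletal list. For Myh8 the nearest were Cd59a, a complement inhibitor (0.13), and Fxyd2, a regulator of the sodium pump (0.15), and Myh3 differed from Myh8 by 0.18. The other members spanned less than 1 log2 unit over the samples and were not matched.

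Markers of skeletal muscle cells outside the myosins showed no call. Of 13 genes 12 were tested, 9 were above and 3 below 0, 0 passed in limma and 0 had an unadjusted p under 0.05, and the median log2 fold change was 0.13. Their summed level was 94.4, 175 and 161.5 TPM in wild type, against 179.7, 110.0 and 176 TPM in the mutants. Myod1, the myogenic regulator, was 10.9, 20.5 and 22.8 TPM and 24.3, 15.9 and 23.0 TPM. Myf5, an earlier regulator, had a log2 fold change of 0.22, Actn3, the fast fibre actinin, 0.44, and Tnni2, fast troponin I, 0.72. Without wild type replicate 1 these were 0.10, 0.19 and 0.42. Myh3 plus Myh8 over the summed list was 0.242, 0.257 and 0.212 in wild type and 0.281, 0.156 and 0.233 in Tmem216-/-, and the lowest ratio was that of Tmem216-/- replicate 2.

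Cardiomyocyte markers moved with the heart chains. Of 13 genes 8 passed in limma, all higher, beside 0.0975% of all genes tested. All 13 lay above wild type in each Tmem216-/- sample, beside 4.75% of all genes tested. Their log2 fold changes ran from 0.41 to 5.82, with a median of 3.28. Of the 8, Nppb, Hspb7 and Pln, a regulator of the calcium pump, reached 1 TPM in the 3 mutants only, so they entered the test through the group where they were high. This rise was known when the list was written, and the part of the number of heart cells in the levels of Myh6 and Myh7 was not tested. Tnnt2 had 15.2, 24.4 and 17.4 TPM in wild type against 121, 245 and 191 TPM in the mutants (log2 fold change 3.19, limma adjusted p = 0.0216). Nppb, a natriuretic peptide, rose by 4.13 on the log2 scale (limma adjusted p = 0.0174), Ankrd1 by 4.0 (0.0198) and Hspb7, a small heat shock protein of muscle, by 3.60 (0.0216). The calls of all 4 were lost in limma without wild type replicate 1, 2 or 3 or Tmem216-/- replicate 3, and those of Tnnt2 and Hspb7 also without Tmem216-/- replicate 2, with adjusted p of at most 0.137. Over all samples left out their log2 fold changes ran from 2.96 to 4.41, and with a pseudocount of 5 that of Hspb7 was 2.05 and did not pass. Markers of the other cells of the heart did not pass: all 7 endocardium and epicardium genes were above 0 (median 0.39) and 0 passed in limma. An unadjusted p under 0.05 was found for 3, beside 4.46% of all genes tested. In 2, Tbx18 and Upk3b, the groups did not overlap, both higher, beside 4.75% of all genes tested. Tbx18 and Upk3b, epicardial genes, had 8.29 ± 1.5 and 2.80 ± 2.24 TPM in wild type, against 13.2 ± 1.93 and 6.61 ± 1.33 TPM in the mutants. Npr3, an endocardial gene, had 9.26 ± 1.46 TPM in wild type and 12.5 ± 1.69 TPM in the mutants.

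Of 8 genes of the smooth muscle list 7 were above 0 and 0 passed in limma. In 5 the groups did not overlap, all higher, beside 4.75% of all genes tested. An unadjusted p under 0.05 was found for 5, beside 4.46% of all genes tested, and the median was 0.70. Lmod1, in both counts, reached 1 TPM in the 3 mutants only, so it entered the test through the group where it was high. The summed level of the list was 141 to 176 TPM in wild type and 257 to 309 TPM in the mutants. Acta2, smooth muscle actin, had 60.7, 85.9 and 64.3 TPM in wild type against 134, 133 and 121 TPM in the mutants. Tagln, an actin binding protein, had a log2 fold change of 1.15, and Cnn1, calponin, of 2.58 (3.66, 3.91 and 0.85 TPM against 15.1, 26.2 and 19.6 TPM). All 3 are also known from young heart muscle. The log2 fold changes of the list ran from -0.06 to 2.58, and that of Myh11 (0.35, overlapping groups) lay within this range.

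Myosin light chains sit at the neck of the heavy chain, and 3 chains of the heart rose in Tmem216-/-. Of 12 light chain genes 11 were tested, 9 were above and 2 below 0, and the list median was 0.76. The groups of 6 did not overlap, all higher, and 6 had an unadjusted p under 0.05, beside 4.75% and 4.46% of all genes tested. In limma 3 passed, all higher, beside 0.0975% of all genes tested. They were the heart chains Myl7 (6.13, limma adjusted p = 0.0174), Myl2 (6.00, limma adjusted p = 0.0198) and Myl3 (5.38, limma adjusted p = 0.0266). Without wild type replicate 1 or 3 or Tmem216-/- replicate 3 all 3 calls were lost, those of Myl2 and Myl3 also without wild type replicate 2 and that of Myl3 without Tmem216-/- replicate 2 (limma adjusted p of at most 0.184). Over all samples left out their log2 fold changes ran from 4.98 to 6.52. Myl4, of atria and embryonic muscle, was 30.6, 55.4 and 40.8 TPM and 188.5, 388 and 280.5 TPM, a log2 fold change of 2.71 that missed the threshold (limma adjusted p = 0.0530). It passed without Tmem216-/- replicate 1 (2.97, limma adjusted p = 0.0386). The log2 fold changes of Myl2, Myl3 and Myl7 were above the 3.88 and 3.87 of Myh6 and Myh7 and that of Myl4 was below them, differences that were not tested.

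Of 10 genes of the thick filament and M-band 8 were tested and 1 passed in limma: Mybpc3, the cardiac myosin binding protein, at 0.36, 0.28 and 0.09 TPM in wild type against 14.6, 36.4 and 21.2 TPM in the mutants (4.25, adjusted p = 0.0198). It reached 1 TPM in the 3 mutants only, so it entered the test through the group where it was high. Its call was lost without any of the wild type replicates (4.31, 4.27 and 4.15) or Tmem216-/- replicate 3 (4.29), with limma adjusted p of at most 0.111, and with a pseudocount of 5 the log2 fold change was 2.40 and did not pass. Myom1, an M-band protein that ties myosin tails together, was 4.98 ± 1.97 and 17.0 ± 2.72 TPM. Ttn, titin, which spans from Z-disc to M-band, was 2.01 ± 1.09 and 4.91 ± 0.07 TPM. In both genes each mutant lay above each wild type sample, and neither passed. Of the 8, 6 were above and 2 below 0, and the median was 0.53. The groups of 4 did not overlap, all higher, and 4 had an unadjusted p under 0.05. Over all genes tested these shares were 4.75% and 4.46%, and 0.0975% passed higher in limma.

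Genes that fold, modify and clear myosin heavy chains had 1 call of 9 tested. Trim55, a ubiquitin ligase of the sarcomere, had 3.27, 3.75 and 3.11 TPM in wild type against 10.8, 14.3 and 13.96 TPM in the mutants (1.67, limma adjusted p = 0.0266). Its call held without Tmem216-/- replicate 1 and was lost without any other sample (1.60 to 1.73, limma adjusted p of at most 0.208). Unc45b, the muscle chaperone of the myosin head, was 4.58 ± 1.13 and 10.2 ± 0.86 TPM (1.02), and Smyd1, a methyltransferase needed for myofibril assembly, was 8.33 ± 1.66 and 21.0 ± 3.68 TPM (1.24). Neither passed, though the groups of both did not overlap. Of the 9, 8 were above and 1 below 0, and the list median was 0.36. The groups of 4 did not overlap, all higher, and 4 had an unadjusted p under 0.05. Over all genes tested these shares were 4.75% and 4.46%, and 0.0975% passed higher in limma.

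Kinases and phosphatase subunits that act on the regulatory light chain were close to 0 as a list. Of 14 genes 13 were tested, 7 were above and 6 below 0, 0 passed in limma, and the median was 0.09. An unadjusted p under 0.05 was found for 1, beside 4.46% of all genes tested. Mylk3, the cardiac light chain kinase, was 5.78, 6.08 and 2.16 TPM and 14.7, 6.09 and 11.1 TPM (1.05), so Tmem216-/- replicate 2 was level with wild type replicate 2. Without wild type replicate 3 its log2 fold change was 0.67. The myosin phosphatase subunits Ppp1r12a and Ppp1r12c were at 0.18 and -0.19, and the inhibitor subunit Ppp1r14b at -0.08.

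The transcription factors known to act on heart myosin genes had 0 of 21 tested members past the threshold in limma. An unadjusted p under 0.05 was found for 5, beside 4.46% of all genes tested. The groups of 8 did not overlap, all higher, beside 4.75% of all genes tested. Of the 21, 14 were above and 7 below 0, and the median was 0.23. Nkx2-5, the cardiac homeobox gene, had 0.99, 0.43 and 1.67 TPM in wild type against 3.73, 11.7 and 7.12 TPM in the mutants (2.00, adjusted p = 0.315 in limma). Its mutant order, replicate 2 over 3 over 1, was that of Myh6 and Myh7. In wild type its order, replicate 3 over 1 over 2, was the reverse of theirs. Gata4, a zinc finger factor of heart and gut mesoderm, was 2.29, 9.42 and 0.76 TPM and 12.4, 12.9 and 9.76 TPM (1.69). Tbx5, of heart and forelimb, was 7.16 ± 4.80 and 15.4 ± 2.76 TPM (1.19), and Hopx, a homeodomain partner in heart, 11.1 ± 0.88 and 18.5 ± 4.51 TPM (0.67). These 4 genes are among the 8 whose groups did not overlap. Without wild type replicate 1 the log2 fold change of Tbx5 was 0.65, and without wild type replicate 3 that of Gata4 was 1.11. Nkx2-5 and Tbx5 also count among the cardiomyocyte markers.

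**Figure D4:**
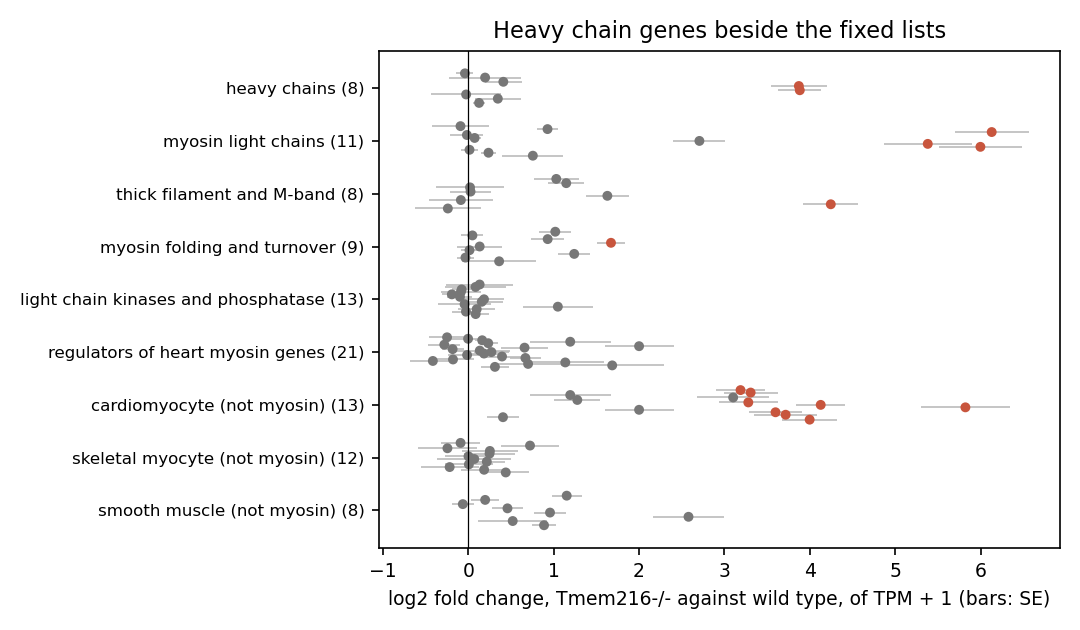
Log2 fold change of TPM + 1, Tmem216-/- against wild type, for the 8 heavy chain genes and for the tested genes of 8 lists; bars are the SE and red points passed at an adjusted p under 0.05. Red points lie in the heavy chain, light chain, thick filament, folding and cardiomyocyte rows, and all of them are to the right of 0.

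Other cell types gave smaller or uneven values. The endothelial genes Pecam1, Cdh5 and Tek had log2 fold changes of 0.23, 0.12 and 0.58, the red cell genes Hba-x, Hbb-y and Hbb-bh1 of 0.48, 0.22 and 0.64, the neural genes Sox2, Dcx and Pax6 of -0.09, 0.19 and 0.15, and the mesenchyme genes Prrx1, Twist1 and Meox2 of -0.05, -0.09 and 0.16. Liver genes were lower in the mean but overlapped (Afp -3.93, Alb -2.13 and Ttr -0.75). Afp was at -6.00 without wild type replicate 3 and at -6.47 and -2.29 without Tmem216-/- replicates 1 and 2. Alb was at -1.38, -1.32 and -3.68 without wild type replicates 1, 2 and 3 and at -3.31 without Tmem216-/- replicate 1. The medians were 0.14 for the endothelial and the red cell list, -0.02 for the neural, -0.04 for the mesenchyme and -2.00 for the liver list. These 5 lists had 0 genes that passed in limma. In them 1 endothelial and 1 red cell gene had an unadjusted p under 0.05, beside 4.46% of all genes tested. Within Tmem216-/- the summed liver genes (823, 83.7 and 120.1 TPM) fell in the inverse order of Myh6 plus Myh7 (136, 309 and 192 TPM). Within wild type the summed liver genes (1508, 1997 and 178 TPM) fell in the same order as Myh6 plus Myh7 (11.0, 14.7 and 10.1 TPM). The part of liver content in the levels of the heart chains was not tested.

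The 6 other heavy chain genes were nearly silent, apart from Myh14. Myh14, the third non-muscle chain, had 3.0, 1.30 and 3.86 TPM in wild type against 2.19, 1.90 and 1.95 TPM in the mutants (log2 fold change -0.24, SE 0.29). The adult fast chains Myh1, Myh2 and Myh4 reached at most 0.40, 0.07 and 0.29 TPM, and Myh13 and Myh15, chains of specialised muscles, at most 0.16 and 0.10 TPM. Only Myh14 of the 6 was tested, and it did not pass. Myh1, Myh2 and Myh4 share sequence with Myh8, so their low values are uncertain.

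Genes next to the members had small differences. Of 15 tested genes within 200 kb of Myh6 and Myh7 the log2 fold changes ran from -0.41 to 0.32, and 0 passed in limma (the lowest adjusted p was 0.983). Around the cluster from Myh3 to Myh8, 5 tested genes ran from -0.06 to 0.18, and around Myh7b 10 ran from -0.24 to 0.26, again with 0 that passed.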

How the data were processed

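RNA from 3 wild type and 3 Tmem216-/- samples was prepared with a TruSeq kit, per the labels' protocols, and the authors deposited gene levels as TPM. Named in the submitters' processing notes are CASAVA 1.8, HISAT2, StringTie, RSEM and mm10; their settings and the read number are not given in the sources used here. The 2 columns of group means were left out. Spreadsheet dates in 27 names were restored from the identifier.

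The 16411 genes that reached 1 TPM in 3 or more samples were tested on log2(TPM + 1) with limma 3.58.1 (lmFit, eBayes with a trend; R 4.3.3), two-sided, with Benjamini-Hochberg adjustment over all of them and a threshold of 0.05. The code was tested on simulated data. SD is over samples, SE and intervals are limma's moderated ones, and Python 3.11.15 did the rest. The members, the lists and the rule for named genes (the family, the 3 genes of each list with the smallest p, 4 in lists of 10 or more, and the 2 nearest profiles) were chosen with earlier results of these data known; 1 gene that the rule names is not reported here. Tried besides were a pseudocount of 0.1 or 5, a filter of 5 TPM or none, scaling by median of ratios or by quantiles, no trend, the replicate number as a block, and each sample left out. Promoter and microRNA sequences are from RefSeq (GRCm38.p6): 7 of 8 members and 3 of 3 microRNA genes matched. Positions and transcripts are from GENCODE M21.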

Additional observations from a re-analysis of the deposited data

How the results depend on the processing

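Of 16411 genes 17 passed, and 12 to 25 did so under other pseudocounts, the 5 TPM filter, both scalings, no trend and the block; with no filter 0 of 30598 passed in limma, while 1207 had an unadjusted p under 0.05. With samples left out 0 to 27 passed: 0, 2 and 1 without wild type replicates 1, 2 and 3 (518, 1906 and 1287 unadjusted) and 27, 9 and 7 without Tmem216-/- replicates 1, 2 and 3. The log2 fold change of Myh6 ran from 3.13 (pseudocount 5) to 4.14 (pseudocount 0.1) and that of Myh7 from 3.36 to 4.2. Replicate numbers do not pair the samples (correlations of deviations 0.02, -0.09 and 0.10, and not every sample correlated best with its own number); with the replicate block 25 genes passed, Myh6 and Myh7 among them, while Trim55 was lost (limma adjusted p = 0.0820) and Myl4 gained (0.00326). With samples left out the sign of some small, uncalled log2 fold changes turned: Myh3 (-0.31 to 0.41), Myh8 (-0.11 to 0.64), Myh9 (-0.09 to 0.02), Cd59a (-0.09 to 0.47), Fxyd2 (-0.02 to 0.65), Mymk (-0.22 to 0.52), Myom3 (-0.26 to 0.38), Myod1 (-0.06 to 0.44), Ppp1r12a (-0.08 to 0.40), Ppp1r14b (-0.17 to 0.02), Prrx1 (-0.11 to 0.06), Sox2 (-0.20 to 0.06) and Twist1 (-0.20 to 0.01). Hbb-y was at -0.00 with quantile scaling. Other uncalled values that moved by over 1.5 times kept their sign, among them Myh14 (-0.55 to -0.01), Hbb-y (0.03 to 0.54), Cdh5 (0.04 to 0.22), Dcx (0.08 to 0.27), Pax6 (0.04 to 0.26), Meox2 (0.01 to 0.24), Ppp1r12c (-0.29 to -0.13) and Upk3b (0.64 without wild type replicate 3). The cause was not tested. The heart share difference stayed between 28.8 and 39.6 points and that of the alpha share between 0.00833 and 4.15. Read depth is unknown, which limits genes near 1 TPM such as Myh11.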
